A study of Rattus norvegicus with 12 samples.

Results

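The genes followed here, 9 in all, were grouped for cell surface adhesion and cell junctions. They were measured across 6 rat cell lines and comprise the epithelial genes Epcam and Cdh1, the mesenchymal and neural cadherins Cdh2, Cdh11 and Cdh22, the claudin Cldn11, the immunoglobulin-family molecules Ncam1 and Pecam1, and Tmem30b. They were taken by name, as the probe sets whose only gene symbol in the platform's table was one of the 9. The list of names was drawn up with earlier results of these data known. They had 18 probe sets out of 31099 on the array, and are 9 of the 14217 genes the array names. Each gene is represented by whichever of its probe sets had the highest mean over all 12 arrays, and the other probe sets are described with it. All 9 genes had at least 1 line with a mean of 5 or more on the log2 scale, the minimum used for testing, which 11000 genes passed.

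The study asked how closely rat induced pluripotent stem (iPS) cells made with a transposon system resemble rat embryonic stem (ES) cells in gene expression. Total RNA was hybridised to 12 single-colour Affymetrix arrays, 2 for each line. The iPS lines A1 and A2 came from the FHH rat strain, and were grown on mouse embryonic fibroblast feeders treated with mitomycin C. DAC2 and DAC8 were the ES lines, and no strain is given for them. Both kinds of stem cell were kept in 2i medium and collected 5 days after passage. The embryonic fibroblast (EF) cultures REF2 and REF1 came from FHH embryos at stage e14.5, and were kept in MEF medium and collected 6 days after passage. The labels do not say whether feeders were removed before RNA was extracted, nor whether both arrays of a line had cultures of their own. A p-value between lines thus reflects array-to-array spread alone, which may be technical, and says nothing of how other lines of the same kind would vary.

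Cadherins are calcium-dependent receptors that bind a like cadherin on the next cell and are tied to the actin skeleton through catenins. E-cadherin (Cdh1) holds epithelial sheets and mouse ES cell colonies together, whereas N-cadherin (Cdh2) and cadherin 11 (Cdh11) are typical of mesenchymal and, for Cdh2, neural cells. The exchange of E-cadherin for N-cadherin, often called cadherin switching, accompanies the epithelial-mesenchymal transition (EMT), and the reverse exchange accompanies the reprogramming of mouse fibroblasts into iPS cells. Transcription factors of the Snai, Zeb and Twist families repress Cdh1 and other epithelial genes, and they bind the E-box sequence CACCTG.

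The arrays labelled DAC8 and REF2 went against their labels. Levels are therefore given by line, and the comparisons by label also without these arrays. In DAC8, 0 of 5 pluripotency markers (Esrrb, Sox2, Tfcp2l1, Lin28a and Sall4) had a mean of 5 or more, and 9 of 10 fibroblast markers did, the same counts as in REF1. In REF2, 5 of 5 pluripotency markers and 3 of 10 fibroblast markers did, the same counts as in DAC2. Postn, a fibroblast matrix protein, averaged 3.79 in DAC2, 13.61 in DAC8, 3.45 in REF2 and 13.74 in REF1. Over the 11000 genes tested the mean correlation was 0.987 between DAC8 and REF1 and 0.975 between DAC2 and REF2. It was 0.637 between the ES-labelled lines and 0.636 between the EF-labelled cultures. The iPS lines stood apart from both kinds: 8 of 8 neural markers (such as Elavl4 and Map2), 3 of 5 pluripotency markers and 3 of 10 fibroblast markers had a mean of 5 or more in A1 and in A2. The neural count was 4 of 8 in DAC2, 6 in DAC8, 5 in REF2 and 6 in REF1, and the fibroblast count of the iPS lines equalled that of DAC2 and REF2. In the iPS lines the 3 fibroblast markers were Thy1, Pdgfra and Fbln2, while Col1a1 averaged 4.35 in A1 and 4.34 in A2, and Postn 3.61 and 3.48. The 3′ minus 5′ difference of the beta-actin control probes, a sign of RNA quality, was 0.84 to 0.87 on the iPS arrays, 0.88 on the DAC2 arrays, 0.45 to 0.52 on the DAC8 arrays, 0.94 to 1.05 on the REF2 arrays and 0.42 to 0.48 on the REF1 arrays. It was therefore lower in DAC8 and REF1 than in every other line, the iPS lines included. Among the 9 genes, Cdh11 and the Ncam1 probe set used split the lines in that way. Its part in the values below was not tested.

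Epcam and Cdh1 had high signal in DAC2 and REF2 and low signal in every other line, both iPS lines included. Epcam encodes a surface glycoprotein of epithelial and mouse ES cells that modulates cell contacts. Its signal was 4.09 and 3.79 in A1, 3.48 and 3.38 in A2, 11.88 and 11.80 in DAC2, 3.17 and 2.52 in DAC8, 11.60 and 11.50 in REF2, and 3.07 and 2.93 in REF1. The 4 arrays of DAC2 and REF2 lay far above the other 8, none of which reached 5, a level below which signal is not shown to lie above background here. Cdh1 measured 3.72 and 3.18 in A1, 4.03 and 4.18 in A2, 11.21 and 11.17 in DAC2, 2.54 and 2.85 in DAC8, 11.14 and 11.10 in REF2, and 2.96 and 2.68 in REF1. Its groups of arrays split in the same way and did not overlap. Against DAC2, Epcam in the iPS lines was lower by a log2 difference of -8.15 ± 0.16 (SE, 4 arrays against 2; adjusted p = 1.47e-10, limma with Benjamini-Hochberg adjustment). The Cdh1 difference was -7.41 ± 0.15 (adjusted p = 1.71e-10). Because the lower side is under 5, both are lower bounds at best. DAC2 and REF2 did not pass the test against each other for Epcam (difference 0.29, adjusted p = 0.24) or for Cdh1 (0.07, adjusted p = 0.757). In a bulk sample, fewer cells of a type and less RNA per cell cannot be told apart.

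Tmem30b had 3 levels. It encodes a beta subunit of phospholipid flippases, enzymes that move lipids across the membrane, and is not itself an adhesion molecule. Signal was 3.65 and 3.89 in A1, 3.56 and 3.23 in A2, 10.67 and 10.66 in DAC2, 8.10 and 7.97 in DAC8, 10.52 and 10.59 in REF2, and 8.46 and 8.51 in REF1. DAC2 and REF2 were highest, DAC8 and REF1 intermediate and the 4 iPS arrays all below 5. The iPS lines were lower by a difference of -7.08 ± 0.10 against DAC2 (adjusted p = 2.66e-11) and of -4.90 ± 0.10 against REF1 (adjusted p = 1.42e-10), each a lower bound at best. Unlike Epcam and Cdh1, it was thus well above 5 in both lines with fibroblast markers. DAC8 lay below REF1 by -0.45 ± 0.11 (adjusted p = 0.0242), a call that was lost when any 1 of their 4 arrays was left out, with adjusted p of 0.0563 to 0.123.

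The promoters of Epcam and Tmem30b are shown because the Zeb, Snai and Twist factors measured below are known to act on such sequences at epithelial genes. RefSeq's promoter table for the assembly GRCr8 matched 4 of the 9 genes, with 250 bases before the annotated start and 50 after it, read on the gene's strand. The motif CACCTG and its reverse complement CAGGTG, which overlap no other motif searched, are in capitals. The Epcam window is chr6:12649629-12649928 and the Tmem30b window chr6:97990497-97990796, both on the minus strand.
Epcam promoter: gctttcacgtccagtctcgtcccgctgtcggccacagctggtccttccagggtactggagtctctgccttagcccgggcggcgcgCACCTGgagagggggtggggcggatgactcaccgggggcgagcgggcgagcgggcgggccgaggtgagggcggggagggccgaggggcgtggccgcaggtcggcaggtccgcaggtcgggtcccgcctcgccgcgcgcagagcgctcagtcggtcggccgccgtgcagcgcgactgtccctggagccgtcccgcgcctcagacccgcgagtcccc
Tmem30b promoter: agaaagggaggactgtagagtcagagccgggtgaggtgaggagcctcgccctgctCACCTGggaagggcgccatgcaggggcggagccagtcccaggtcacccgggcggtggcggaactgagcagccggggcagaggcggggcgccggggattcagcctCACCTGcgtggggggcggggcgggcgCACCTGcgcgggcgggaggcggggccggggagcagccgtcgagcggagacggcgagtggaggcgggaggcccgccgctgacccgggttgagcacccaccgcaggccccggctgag
The Epcam window held 1 motif, 165 bases before the start. The Tmem30b window held 3, at 195, 91 and 65 bases before the start. Cldn11, on chromosome 2, had 1 motif 14 bases after the start, and the Cdh22 window, on chromosome 3, had 0. Among all 33469 promoter windows in the table, 18.8% held at least 1 such motif and 2.52% held 2 or more. A match is a description of the letters, and no binding was measured.

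Pecam1 split like Epcam and Cdh1, at a lower level. It encodes CD31, an adhesion molecule of endothelial cells and platelets that is also found on mouse ES cells. It measured 3.89 and 3.90 in A1, 3.31 and 3.68 in A2, 8.01 and 7.76 in DAC2, 2.92 and 3.31 in DAC8, 8.39 and 8.25 in REF2, and 2.80 and 2.74 in REF1. The DAC2 and REF2 arrays were all above 7 and the other 8 arrays all below 4. The iPS lines were lower than DAC2 by a difference of -4.19 ± 0.13 (adjusted p = 2.53e-09), a lower bound at best. DAC2 was also lower than REF2, by -0.43 ± 0.15 (adjusted p = 0.0423), a call lost under several other settings (adjusted p = 0.0552 with a replicate block). Of 6 endothelial markers in the table, 2 had a mean of 5 or more in A1 and in A2, 3 in DAC2, 1 in DAC8, 2 in REF2 and 1 in REF1. Tie1, an endothelial receptor, averaged 2.73 in A1, 3.11 in A2, 5.19 in DAC2, 2.92 in DAC8, 4.93 in REF2 and 2.72 in REF1, and Vwf, the clotting factor carrier of endothelium, 4.37 in A1, 4.45 in A2, 5.17 in DAC2, 4.17 in DAC8, 5.26 in REF2 and 4.47 in REF1. Both were thus highest in DAC2 and REF2, like Pecam1, while Kdr and Emcn were below 5 in all 6 lines. Egfl7 was above 5 in all 6 lines without that split. It averaged 6.55 in A1, 6.55 in A2, 6.70 in DAC2, 6.89 in DAC8, 6.26 in REF2 and 6.91 in REF1. The summed linear level of the 6 markers was 668 in A1, 613 in A2, 204 in DAC2, 188 in DAC8, 169 in REF2 and 179 in REF1. Most of the iPS sum was Tek, at 9.06 in A1 and 8.89 in A2, and without it the sums were 136 in A1, 140 in A2, 198 in DAC2, 161 in DAC8, 163 in REF2 and 166 in REF1. Of 6 leukocyte markers, 1 or 2 reached 5 in each line, with summed levels of 120 in A1, 102 in A2, 174 in DAC2, 118 in DAC8, 176 in REF2 and 118 in REF1. Laptm5, a lysosomal protein of blood cells, averaged 5.66 in A1, 5.41 in A2, 6.71 in DAC2, 5.63 in DAC8, 6.67 in REF2 and 5.64 in REF1, and Ptprc and Itgam were below 5 in all 6 lines. Cd68 averaged 5.30 in A1, 4.89 in A2, 4.97 in DAC2, 4.76 in DAC8, 5.20 in REF2 and 4.64 in REF1, and Csf1r and Tyrobp were below 5 in all 6 lines. Laptm5, like Tie1 and Vwf, was thus highest in the lines where Pecam1 was high, whereas Egfl7 and Cd68 were not. The part of these markers in the Pecam1 values was not tested.

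**Figure D1:**
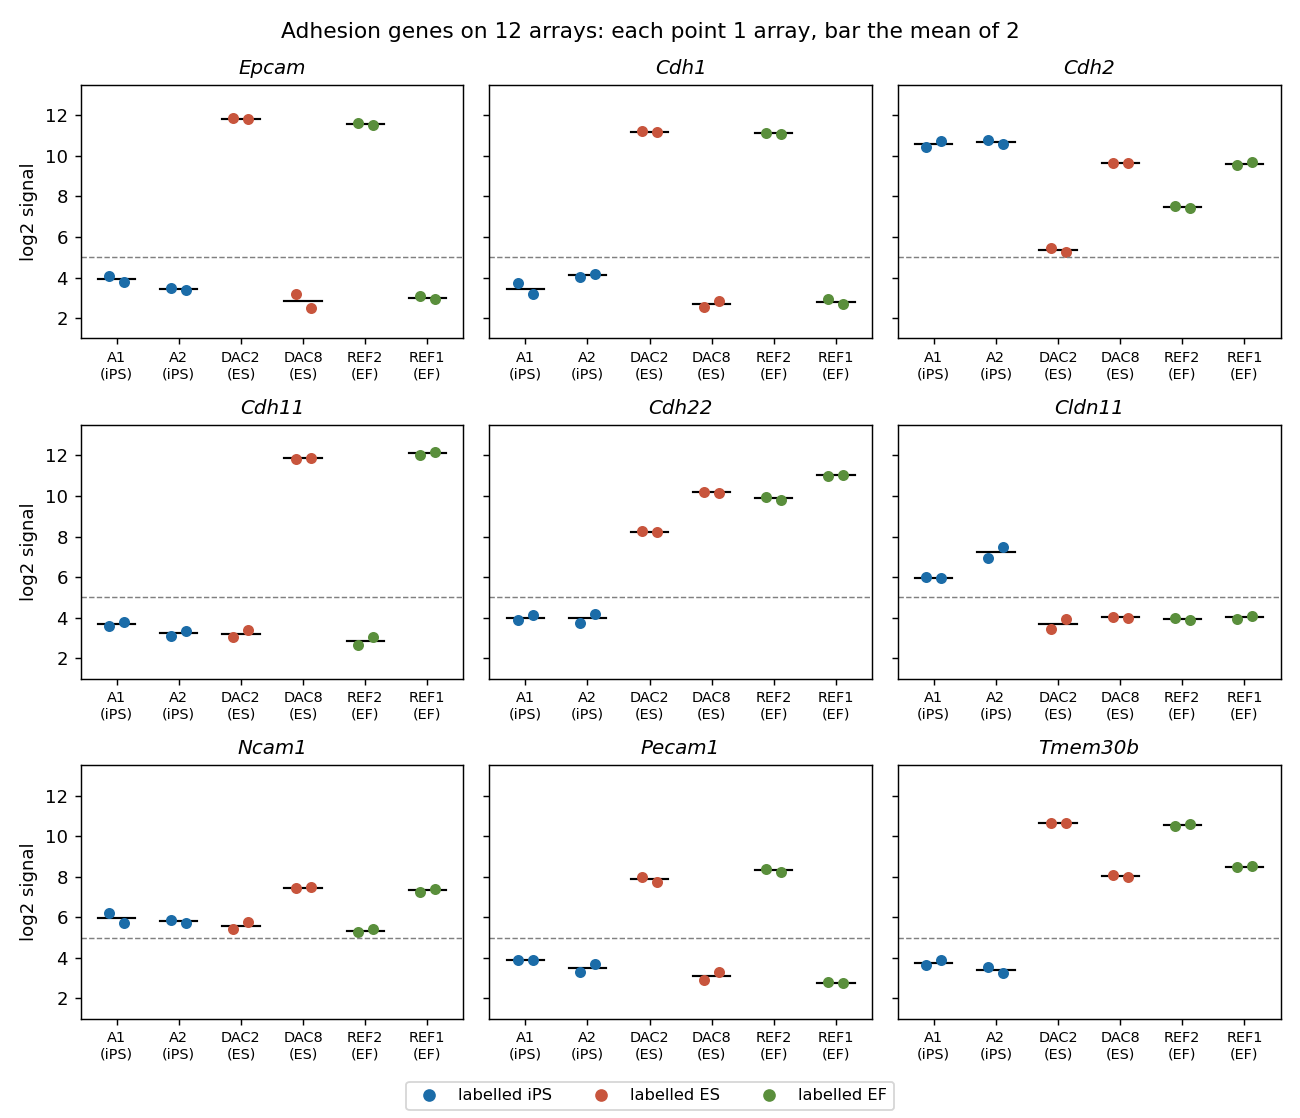
Log2 signal of the 9 genes on each of the 12 arrays, by line with the labelled cell type in colour. Each point is 1 array, the bar is the mean of the 2 arrays of a line, and the dashed line marks a log2 signal of 5. Epcam, Cdh1 and Pecam1 lie above the dashed line in DAC2 and REF2 alone, Cdh11 in DAC8 and REF1 alone, and Cldn11 in A1 and A2 alone.

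Cdh2 was highest in the iPS lines. N-cadherin measured 10.45 and 10.73 in A1, 10.78 and 10.58 in A2, 5.45 and 5.27 in DAC2, 9.65 and 9.64 in DAC8, 7.55 and 7.43 in REF2, and 9.53 and 9.70 in REF1. All 4 iPS arrays lay above all 8 others, and DAC2 was near the limit of 5. The iPS lines were higher by a difference of 5.28 ± 0.10 against DAC2 (adjusted p = 1.10e-10) and of 1.02 ± 0.10 against REF1 (adjusted p = 6.99e-06). In order of level the lines ran A2, A1, DAC8, REF1, REF2, DAC2. A2 and A1 (adjusted p = 0.803) and DAC8 and REF1 (0.905) did not pass the test as neighbours, while A1 with DAC8, REF1 with REF2 and REF2 with DAC2 did. REF2 and DAC2, alike in Epcam and Cdh1, thus differed in Cdh2: DAC2 was lower by -2.13 ± 0.11 (adjusted p = 2.30e-06).

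Cdh11 had strong signal in DAC8 and REF1 only among the 6 lines. Cadherin 11 is the cadherin of many fibroblasts and of bone-forming cells. Signal was 3.61 and 3.77 in A1, 3.08 and 3.36 in A2, 3.04 and 3.39 in DAC2, 11.85 and 11.89 in DAC8, 2.67 and 3.06 in REF2, and 12.03 and 12.17 in REF1. The 8 arrays of the iPS lines, DAC2 and REF2 were all under 4, so no direction is read among them. Against REF1 the iPS lines were lower by a difference of -8.64 ± 0.14 (adjusted p = 3.96e-11) and DAC2 by -8.88 ± 0.16 (adjusted p = 7.63e-11), lower bounds at best. DAC8 and REF1 did not pass the test against each other (difference -0.23, adjusted p = 0.35). The summed linear level of the 10 fibroblast markers was 976 in A1, 882 in A2, 260 in DAC2, 37910 in DAC8, 423 in REF2 and 48291 in REF1, and its part in the Cdh11 values was not tested. The iPS lines combined a Cdh2 signal above that of REF1 with a Cdh11 signal that was not shown above background.

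Cdh22 had signal in all lines but the iPS lines. It encodes a type II cadherin described in rat pituitary and brain. It measured 3.88 and 4.11 in A1, 3.73 and 4.19 in A2, 8.27 and 8.22 in DAC2, 10.22 and 10.17 in DAC8, 9.94 and 9.83 in REF2, and 11.01 and 11.04 in REF1. The 4 iPS arrays were below 5, and the other 8 were all above 8. The differences of the iPS lines were -4.26 ± 0.12 from DAC2 (adjusted p = 1.11e-09) and -7.05 ± 0.12 from REF1 (adjusted p = 4.86e-11), lower bounds at best. The order of levels was REF1, DAC8, REF2, DAC2, then A1 and A2. DAC8 and REF2 did not pass the test as neighbours (adjusted p = 0.0536), while DAC8 was lower than REF1 by -0.83 ± 0.13 (adjusted p = 0.00316) and DAC2 lower than REF2 by -1.64 ± 0.13 (adjusted p = 2.39e-05). In both pairs of lines that shared a profile, Cdh22 was thus lower in the ES-labelled line. Between DAC8 and REF1 the limma call was lost when the mean of its probe sets was used (difference -0.31, adjusted p = 0.0692).

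Cldn11 reached 5 in the iPS lines alone among the 6 lines. Claudin 11 forms tight junctions in myelin and between the Sertoli cells of the testis. Signal was 5.99 and 5.95 in A1, 6.94 and 7.50 in A2, 3.45 and 3.95 in DAC2, 4.04 and 3.99 in DAC8, 4.0 and 3.90 in REF2, and 3.94 and 4.10 in REF1. The iPS lines were higher than DAC2 by a difference of 2.90 ± 0.16 (adjusted p = 1.72e-07) and higher than REF1 by 2.58 ± 0.16 (adjusted p = 3.38e-07), at best lower bounds. A1 was lower than A2 by -1.25 ± 0.19 (adjusted p = 0.016). That call was lost without A1 replicate 1 (adjusted p = 0.0662), A1 replicate 2 (0.0773) or A2 replicate 2 (0.0617), and in a fit of the 4 iPS arrays alone (0.199). Of 5 oligodendrocyte markers in the table, 0 reached 5 in A1, A2, DAC2 and REF2, and 1, Sox10, did in DAC8 and REF1. Mbp, Mog, Mag and Olig2 were below 5 in all 6 lines, and the summed linear level was 76.7 in A1, 75.0 in A2, 90.9 in DAC2, 129 in DAC8, 85.0 in REF2 and 106 in REF1.

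Ncam1 was highest in DAC8 and REF1. It encodes the neural cell adhesion molecule, which binds itself on neighbouring neurons and on muscle cells. It measured 6.2 and 5.71 in A1, 5.86 and 5.74 in A2, 5.42 and 5.75 in DAC2, 7.42 and 7.48 in DAC8, 5.26 and 5.43 in REF2, and 7.23 and 7.41 in REF1. The arrays of A1, A2 and DAC2 overlapped. The iPS lines were lower than REF1 by a difference of -1.44 ± 0.14 (adjusted p = 6.84e-06), and their difference from DAC2, 0.29 ± 0.14, did not pass the test (adjusted p = 0.079). Its probe sets disagreed on this order. On a second probe set the line means were 6.16 in A1, 6.05 in A2, 3.76 in DAC2, 6.60 in DAC8, 3.77 in REF2 and 6.19 in REF1. There the iPS lines were higher than DAC2 by 2.35 ± 0.15 (adjusted p = 4.85e-07 over every probe set tested) and did not pass the test against REF1 (difference -0.08, adjusted p = 0.639). On the third probe set, at 4.02 to 5.03 in all lines, the iPS lines also passed against DAC2 (0.83 ± 0.21, adjusted p = 0.00574). Both means there were below 5, at 4.85 in the iPS lines and 4.02 in DAC2, so no direction is read. Whether the Ncam1 signal of the iPS lines was nearer to DAC2 or to REF1 therefore turned on the probe set. The neural markers stood at medians of 10.69 in A1, 10.65 in A2, 5.03 in DAC2, 6.87 in DAC8, 5.78 in REF2 and 7.01 in REF1, with summed linear levels of 24149 in A1, 23773 in A2, 2403 in DAC2, 2173 in DAC8, 1878 in REF2 and 1591 in REF1. Their part in the Cdh2, Cldn11 and Ncam1 values was not tested.

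The other genes with several probe sets were Cdh1, Cdh2, Cdh11, Cdh22 and Cldn11. A second set followed the first for Cdh2, where the iPS lines were 3.96 ± 0.08 above DAC2 (adjusted p = 1.75e-10) and 0.38 ± 0.08 above REF1 (adjusted p = 0.00172). A second Cdh11 set averaged 2.22 in A1, 2.35 in A2, 2.20 in DAC2, 7.13 in DAC8, 2.09 in REF2 and 7.32 in REF1, and so had the same split. The third Cdh2 set went the other way over a small range, with the iPS lines lower than DAC2 by -0.61 ± 0.07 (adjusted p = 3.42e-05) and line means between 5.09 and 5.86. The third Cdh11 set lay at 4.72 to 5.03 in all lines. The second sets of Cdh1, Cdh22 and Cldn11 were below 5 on all 12 arrays, so they carry no direction. Signal of different probe sets depends on their probes, and their levels are not set against each other.

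**Figure D2:**
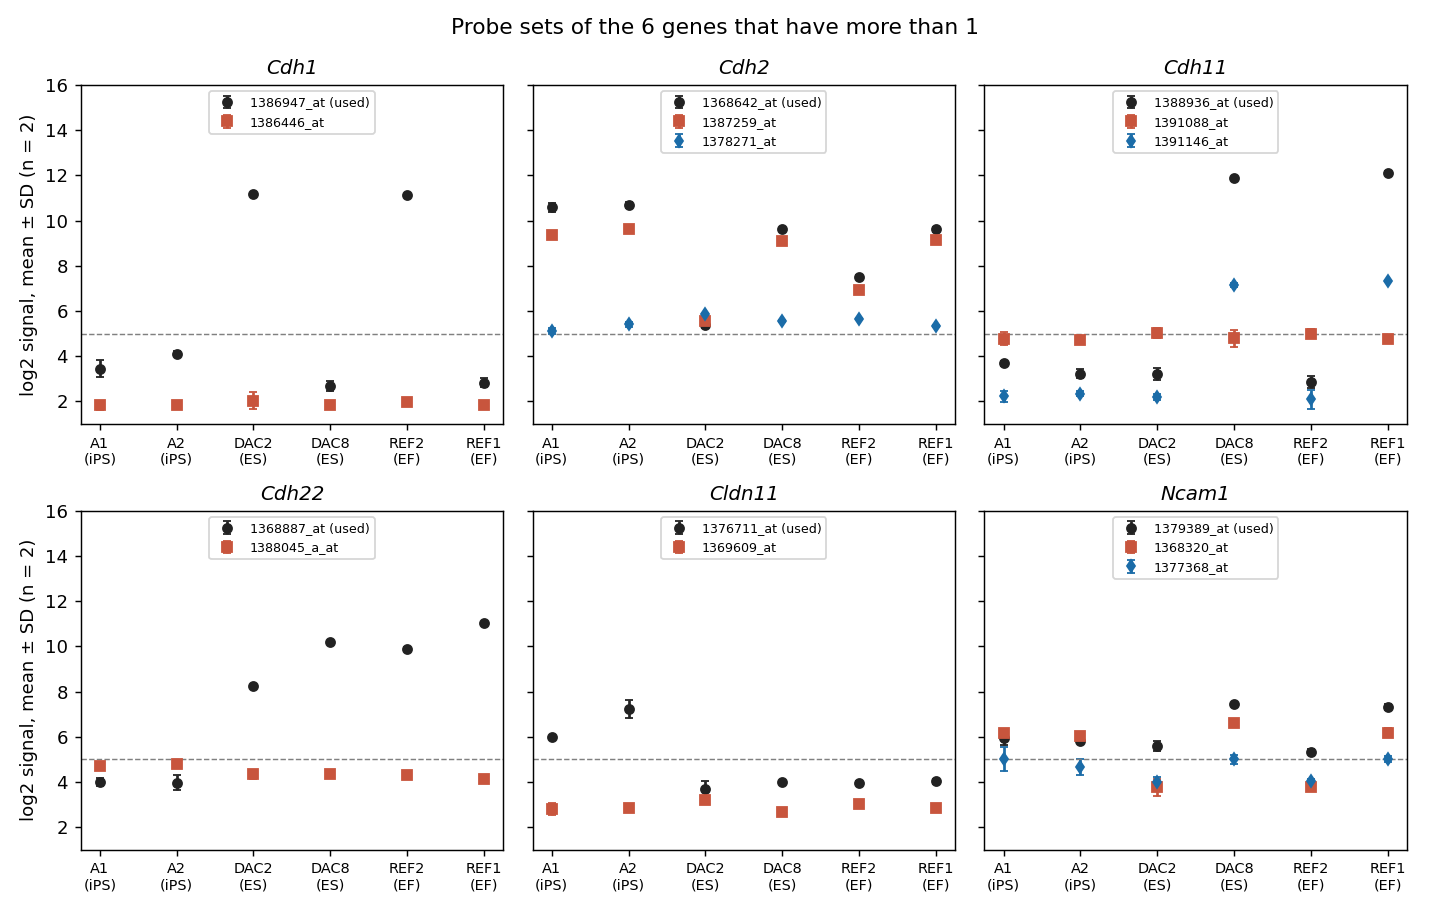
Log2 signal of every probe set of the 6 genes that have more than 1, as the mean ± SD of the 2 arrays of each line, with the labelled cell type under the line. The set marked as used stands for the gene, and the dashed line marks a log2 signal of 5. The second Ncam1 set has A1 and A2 at 6.16 and 6.05, beside REF1 at 6.19, whereas the set used has them beside DAC2.

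Between the iPS lines and DAC2, 7 of the 9 genes passed the test, all by at least 2-fold: Cdh2 and Cldn11 were higher, and Epcam, Cdh1, Cdh22, Pecam1 and Tmem30b lower. Over all genes tested, 81.4% passed in this comparison and 29.8% passed with at least 2-fold, since 2 arrays of a line differ little and small differences pass. The median difference over the 9 genes was -4.19, beside -0.07 over all genes. Against REF1, 9 of 9 passed, where 81.7% of all genes did. Cdh2 and Cldn11 were higher, Cdh11, Cdh22, Ncam1 and Tmem30b lower, and for Epcam, Cdh1 and Pecam1 both means were below 5, so that no direction is read. At 2-fold or more it was 6 of 9, beside 32.7% of all genes. The medians were 0.69 for the 9 genes and 0.12 for all. The 0.69 is the Epcam difference, with both means below 5, so no direction is read from that median either.

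DAC2 against REF1 gave 8 of 9 calls, where 84.2% of all genes were called and 41% at 2-fold or more. DAC2 was higher in Epcam (8.84 ± 0.18, adjusted p = 1.90e-10), Cdh1 (8.37 ± 0.17), Pecam1 (5.12 ± 0.15) and Tmem30b (2.18 ± 0.11), and lower in Cdh11 (-8.88 ± 0.16), Cdh2 (-4.26 ± 0.11), Cdh22 (-2.78 ± 0.13) and Ncam1 (-1.74 ± 0.16). The largest adjusted p of the 8 was 4.86e-06, and all 8 differences were at least 2-fold. Cldn11 did not pass, with both means below 5. The iPS lines held neither set: like REF1, they had no Epcam, Cdh1 or Pecam1 signal above 5 and had Cdh2, and like DAC2 they had no Cdh11 signal above 5. Neither Cdh22 nor Tmem30b, which were above 5 in both DAC2 and REF1, reached 5 in the iPS lines.

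The lines that shared a profile differed less. Of the 9 genes, 3 passed between DAC2 and REF2 (Cdh2, Cdh22 and Pecam1, all lower in DAC2), beside 45.7% of all genes, and 2 by at least 2-fold, beside 4%. Between DAC8 and REF1, 2 passed (Cdh22 and Tmem30b, both lower in DAC8), beside 19.8% of all genes, and 0 by 2-fold or more, beside 1.53%. Between A1 and A2, 1 passed (Cldn11, lower in A1 by over 2-fold), beside 1.8% of all genes, or 0.218% at 2-fold or more.

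**Figure D3:**
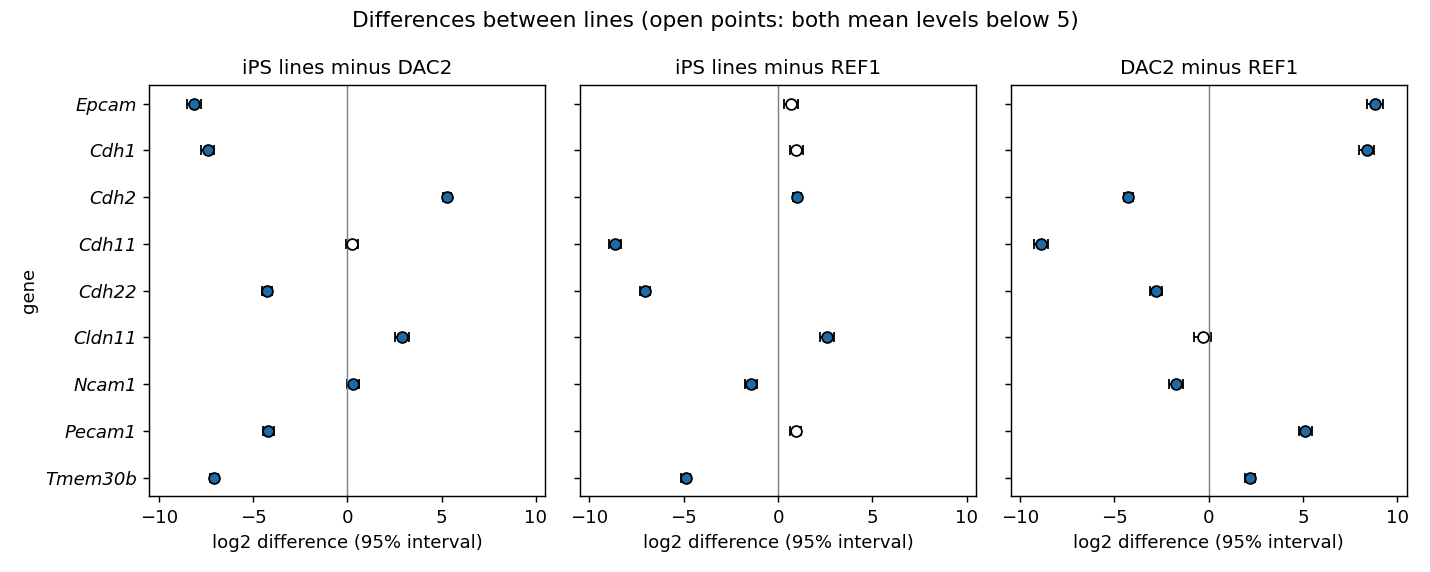
Log2 differences of the 9 genes between lines, with 95% intervals from limma, for the iPS lines minus DAC2, the iPS lines minus REF1 and DAC2 minus REF1. Positive values are higher in the line named first, and open points have both means below 5. Epcam is at -8.15 in the panel of the iPS lines minus DAC2 and at 8.84 in that of DAC2 minus REF1, and Cdh11 at -8.64 and -8.88 in both panels against REF1.

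By the labels, with the line as the unit and 2 lines in each cell type, few differences could be told from the spread between lines. For iPS against ES, 0 of the 9 genes passed, where 2.26% of all genes did (249 genes, and 1583 at an unadjusted p under 0.05). Cdh22 (-5.24 ± 0.79, adjusted p = 0.067), Cldn11 (2.74 ± 0.48, adjusted p = 0.0911) and Tmem30b (-5.77 ± 1.16, adjusted p = 0.121) had the smallest p. For iPS against EF, 1 of 9 passed, where 2.53% of all genes did: Cdh22 averaged 3.98 in the iPS lines and 10.46 in the EF-labelled cultures, a difference of -6.47 ± 0.79 (adjusted p = 0.0391). It lost the call when the mean of its probe sets was used (adjusted p = 0.054). In both comparisons the 4 iPS arrays did not overlap the 4 others for Cdh2, Cdh22, Cldn11 and Tmem30b. The share of all genes without overlap was not counted, so nothing further is read from this. For ES against EF, limma called 0 of 9 and 0% of all genes (25 genes at an unadjusted p under 0.05), and the standard error for Epcam, 4.20, exceeded its difference of 0.07. Without the arrays labelled DAC8 and REF2, 7 of 9 genes passed for iPS against ES, beside 70.6% of all genes, 8 of 9 for iPS against EF, beside 73.1%, and 8 of 9 for ES against EF, beside 75.8%. Each ES and EF side then rests on 1 line, whose spread is taken from the iPS lines. Among the genes that passed for iPS against EF, Cdh1 and Pecam1 then had both means below 5, so no direction is read for them.

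The transcription factors and junction genes below come from lists of 4 to 11 tested genes. Of 7 EMT transcription factors tested, 6 passed between the iPS lines and DAC2: 4 were higher, all by at least 2-fold, 1 was lower, and for Twist2 both means were below 5. Over all genes 38.2% were higher and 43.2% lower there, and 16.5% were higher and 13.3% lower at 2-fold or more. The largest differences were those of Zeb2 (5.57 ± 0.14), Twist1 (3.16 ± 0.09), Zeb1 (2.77 ± 0.11) and Tcf4 (1.53 ± 0.05). Zeb2, a repressor of Cdh1, averaged 7.89 in A1, 7.92 in A2, 2.34 in DAC2, 8.28 in DAC8, 2.31 in REF2 and 8.10 in REF1. Its lines thus split the other way from those of Epcam and Cdh1. Zeb1, Twist1 and Tcf4 were also lowest in DAC2 and REF2. Snai1, the factor that was lower, was not: it averaged 4.73 in A1, 4.60 in A2, 5.36 in DAC2, 7.18 in DAC8, 5.33 in REF2 and 7.33 in REF1. Prrx1 and Twist2 were below 5 in the iPS lines, DAC2 and REF2. The part of these factors in the Epcam and Cdh1 values was not tested. Against REF1, 4 of the 7 factors were lower in the iPS lines by at least 2-fold and 2 higher by less, where 16.4% of all genes were higher and 16.4% lower at that size. The 4 were Prrx1 (-6.30 ± 0.12), Twist1 (-2.87 ± 0.09), Snai1 (-2.66 ± 0.14) and Twist2 (-2.47 ± 0.11). Between DAC2 and REF1 all 7 were lower in DAC2 by at least 2-fold, where 20.9% of all genes were.

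All 8 epithelial regulators tested passed between the iPS lines and DAC2: 6 were lower, 1 was higher and for Elf3 both means were below 5, with a median difference of -1.47 beside -0.07 over all genes. Of all genes 81.4% passed there, and 43.2% were lower and 38.2% higher. Spint1, an inhibitor of the membrane protease matriptase, was lowest (-4.88 ± 0.25), followed by Spint2 (-2.90 ± 0.07), Esrp1, an epithelial splicing regulator (-2.11 ± 0.18), and St14, which is matriptase (-1.63 ± 0.17). In the other direction, Grhl3, a grainyhead factor of surface epithelium, averaged 7.31 in A1 and 6.78 in A2, against 5.57 in DAC2 and 3.97 in REF1, and was named after its values were seen. Between DAC2 and REF1, 7 of the 8 were higher in DAC2 with at least 1 mean of 5 or more, beside 48.2% of all genes that were higher. Of 11 other tight junction genes tested, 9 were lower and 1 higher in the iPS lines than in DAC2, 8 of the 9 by at least 2-fold. Of all genes 43.2% were lower there, and 13.3% were lower at 2-fold or more. F11r (-4.64 ± 0.09), Ocln (-4.18 ± 0.29), Cldn5 (-3.44 ± 0.14) and Cldn6 (-3.19 ± 0.29) led, all encoding membrane proteins of the junction strand or its border. Against REF1, where 47% of all genes were higher and 34.7% lower, 4 of the 11 were higher and 1 lower in the iPS lines, and for 3 more that passed, Cldn5, Cldn7 and F11r, both means were below 5.

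Desmosome genes did not move as one. All 8 tested passed between the iPS lines and DAC2: 4 were lower, 3 were higher and for Pkp2 both means were below 5, in a comparison where 81.4% of all genes passed. The differences were led by Perp (-4.91 ± 0.30), Dsg2 (-4.88 ± 0.11), Dsp (-3.89 ± 0.19) and Pkp1 (2.81 ± 0.11). Dsc2, a desmosomal cadherin, was 4.65 ± 0.06 higher in the iPS lines than in REF1 (adjusted p = 2.20e-11), while Dsg2, the partner cadherin, was lower (-3.97 ± 0.11). Of 10 catenins, nectins and other adherens junction partners, 6 were higher and 4 lower in the iPS lines than in DAC2, of which 2 and 2 by at least 2-fold, beside 38.2% and 43.2% of all genes that were higher and lower. The neural catenins led: Ctnna2 averaged 8.30 in A1 and 8.36 in A2, against 3.79 in DAC2 and 5.01 in REF1, and Ctnnd2 6.67 in A1 and 6.73 in A2, against 2.93 in DAC2 and 7.09 in REF1. Ctnnb1, beta-catenin, lay between 12.18 and 12.63 in all 6 lines, and was picked after its values were seen.

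Of 4 other cadherins tested, 2 were higher and 0 lower in the iPS lines than in DAC2, and 1 was higher and 2 lower than in REF1, while Cdh6 passed both tests with both means below 5. Over all genes 38.2% were higher and 43.2% lower than in DAC2, and 47% higher and 34.7% lower than in REF1. Cdh10, a cadherin of the brain, averaged 7.71 in A1 and 7.75 in A2, against 3.63 in DAC2 and 4.94 in REF1. Cdh13, anchored to the membrane by a lipid, averaged 5.36 in A1, 4.82 in A2, 4.79 in DAC2, 10.19 in DAC8, 4.13 in REF2 and 10.36 in REF1, and Cdh3 (P-cadherin) 4.27 in A1, 4.28 in A2, 4.56 in DAC2, 7.74 in DAC8, 4.52 in REF2 and 7.77 in REF1. Both were highest in DAC8 and REF1, like Cdh11, but Cdh13 was also above 5 in A1. Of 8 other immunoglobulin-family adhesion molecules, 7 were higher and 1, Icam1 (-1.92 ± 0.06), lower in the iPS lines than in DAC2, beside 38.2% and 43.2% of all genes. Nrcam (2.34 ± 0.16), Chl1 (2.34 ± 0.11) and Nfasc (2.32 ± 0.20), all of the neural L1 group, were foremost. Integrins, which bind cells to matrix, passed against REF1 in 11 of 11 genes tested, where 81.7% of all genes passed. Of the 11, 10 were lower in the iPS lines, beside 34.7% of all genes, and for Itga9 both means were below 5. Itga1 (-5.17 ± 0.13) and Itgb3 (-5.01 ± 0.13) led. Against DAC2 the integrins were divided, with 2 higher, 4 lower, 2 called with both means below 5 and 3 not called. Of all genes 38.2% were higher and 43.2% lower there.

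**Figure D4:**
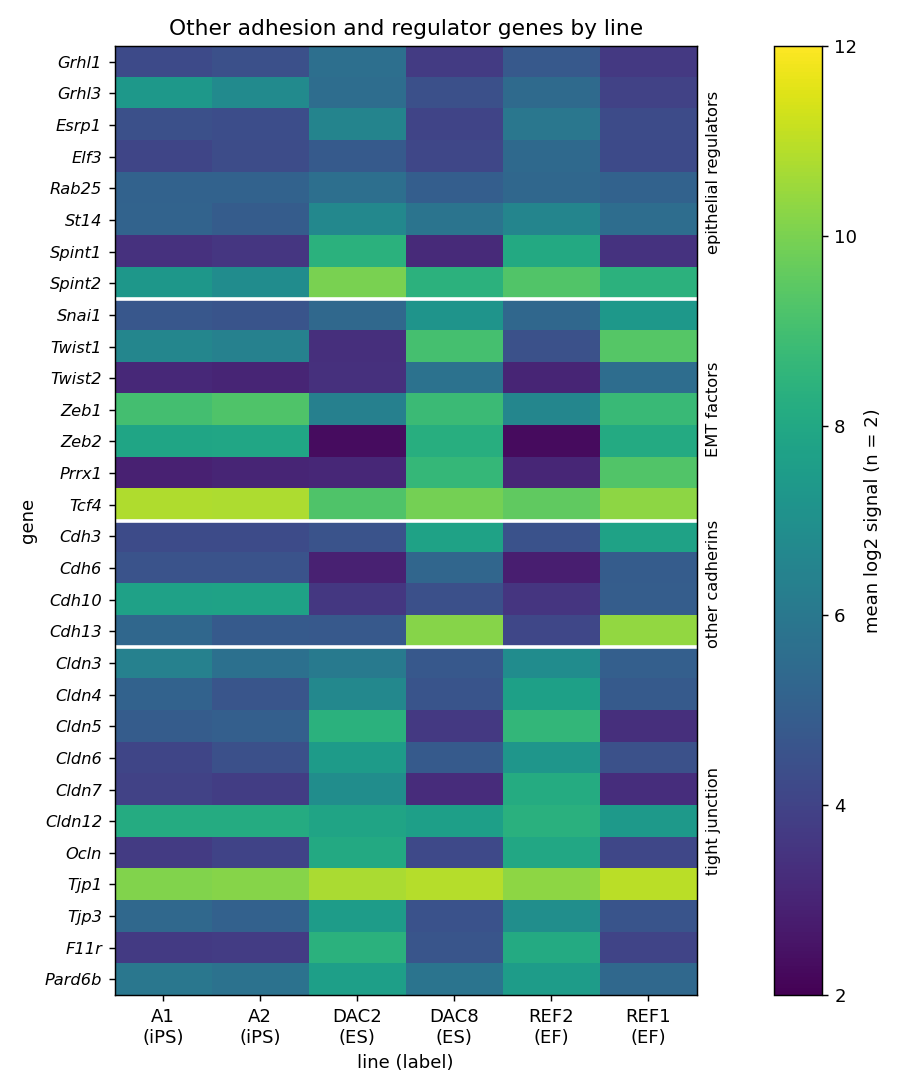
Mean log2 signal (n = 2 arrays) of the tested epithelial regulators, EMT factors, other cadherins and tight junction genes in the 6 lines, as colour. Ocln and F11r are bright in DAC2 and REF2, at 8.06 and 7.99 for Ocln, and Zeb2 is dark in the same lines, at 2.34 and 2.31.

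The genes whose log2 values over the 12 arrays lay nearest to each of the 9, by root mean square difference after centring, are given as a description, since points from the same arrays share the lines. Nearest to Epcam were Crxos1 (0.43), Cdh1 (0.48) and Tex15 (0.52), so that Epcam and Cdh1 were among each other's 3 nearest of the 11000 genes. Nearest to Cdh2 were Casd1 (0.33), Map1b (0.34) and S1pr1 (0.37), and to Cdh11 Car3 (0.30), Ccdc80 (0.31) and Col8a2 (0.33). Map1b encodes a microtubule protein of growing axons and Col8a2 a collagen chain. Cldn11 had Coch (0.30), Ccdc180 (0.31) and Colgalt2 (0.32) nearest, Pecam1 had Clec3a (0.29), Hsf2bp (0.30) and Gbp7 (0.32), and Tmem30b had Etv5 (0.47), Epas1 (0.48) and Tcfl5 (0.50). Etv5 is a transcription factor downstream of growth factor signalling. Nearest to Cdh1 after Epcam (0.48) were Tex15 (0.51) and C3h15orf48 (0.56). Cdh22 had Anxa3 (0.59), Myc (0.64) and Tmtc1 (0.67) nearest, and Ncam1, whose range was small, had Prkca (0.12), Spred3 (0.15) and Tmem115 (0.16).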

How the data were processed

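RNA of 12 samples (3 cell types, 6 lines, 2 arrays each) was measured on rat Affymetrix arrays. The authors deposited 1 log2 value for each of 31099 probe sets, made with RMA and with Partek 6.2 per the submitters' processing notes. The RMA method subtracts background, aligns the arrays with each other and reduces each probe set to 1 value, so that differences of dim and of very bright genes are compressed. The values ran from 1.45 to 14.12, with array medians of 5.28 to 5.41, and were used as deposited. No detection calls were used, so a log2 signal of 5 served as a working limit, and the number of arrays limits the precision.

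The platform's gene annotation gave 20832 probe sets 1 gene symbol, 436 several and 9831 none, and 57 were controls. By gene identifier 20764 were matched to RefSeq's table for GRCr8, and 0 symbols changed. Each of 14217 genes was represented by its probe set with the highest mean, and 3217 genes whose highest line mean was under 5 were left out. Differences between lines were fitted with limma 3.58.1 in R 4.3.3, the 6 lines being the factor over 12 arrays. Cell types were compared on line means. Benjamini-Hochberg adjustment ran over 11000 genes, with calls at adjusted p under 0.05, and probe sets were tested in a separate fit of 20256.

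Each array stayed in the group its label gives. The members, lists and the comparisons of DAC2 and REF1 were chosen with earlier results of these data known. All 9 genes were named in every comparison, together with up to 4 called genes of the largest difference from each list and the 3 nearest patterns of each gene. Same-numbered replicates deviated together (r above 0.1) in 3 of 15 pairs of lines (range -0.08 to 0.24), so the numbers were not taken to pair the arrays. Alternatives were other filters, normalizations, probe set rules, variance models and blocks, and arrays left out. Figures were drawn with matplotlib 3.10.9.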

Additional observations from a re-analysis of the deposited data

Results flagged for a closer look

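Cldn11 on the first DAC2 array had a log2 signal of 3.45, below the other 3 arrays labelled ES, which lay between 3.95 and 4.04. The gap was large for the range of the 4 arrays by Dixon's criterion. It was 1 of 27 sets of 4 arrays examined (9 genes in 3 cell types), and chance flags about 1 in 20. All 4 values are below 5, where signal is not shown to lie above background.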

How the results depend on the processing

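Of the 27 differences between lines called for the 9 genes with a direction, 594 values under alternatives gave 575 that kept direction and call, 19 that lost the call and 0 that reversed. By the labels, iPS against ES (249 genes, 0 of 9) gave 572 with every probe set, 512 and 2 of 9 with line as a random block, 3006 and 4 of 9 without any block, 469 and 2 of 9 with line as a random block and a replicate block, and 7771 and 7 of 9 without the arrays labelled DAC8 and REF2. In the same order iPS against EF (278 genes, 1 of 9) gave 594, then 557 and 2 of 9, 3164 and 3 of 9, 500 and 2 of 9, and 8040 and 8 of 9, and the mean of probe sets gave 0 of 9. For ES against EF (0 and 0 of 9) it was 6 genes without any block and 8343 and 8 of 9 without those arrays. Leaving out 1 array gave 239 to 252, 263 to 280 and 0 genes in these 3 comparisons. Testing every probe set gave 15912 calls for the iPS lines against DAC2, 16009 against REF1, 16443 for DAC2 against REF1, 7834 for DAC2 against REF2 and 3267 for DAC8 against REF1, since more features were tested. In the fit of only the lines compared, calls were 1322 for DAC8 against REF1 (2174) and 13 for A1 against A2 (198), where an intensity trend gave 359. Of the 9 genes, A1 against A2 gave 2 with that trend and 0 in the smaller fit, and DAC8 against REF1 gave 1 with the mean of probe sets. With 1 array left out, genes called were 8267 to 8949 for the iPS lines against DAC2 (7 to 9 of the 9), 8456 to 8966 against REF1, 8863 to 9277 for DAC2 against REF1 (8 to 9), 3830 to 4979 for DAC2 against REF2 (2 to 4), 1243 to 2116 for DAC8 against REF1 (1 to 2) and 65 to 182 for A1 against A2 (0 to 1). The replicate block changed no count between lines by over 1.5 times (8 of 9 for the iPS lines against DAC2). With the DAC8 and REF2 arrays left out, the difference changed sign for iPS against ES in Cdh11 (0.24) and Ncam1 (0.29). For iPS against EF it did so in Epcam (0.69), Cdh1 (0.96) and Pecam1 (0.93). In that Cdh11 comparison and in those of Epcam, Cdh1 and Pecam1, both means were then below 5, so no direction is read. For ES against EF the difference turned in Cdh1 (8.37), Cdh11 (-8.88), Ncam1 (-1.74), Pecam1 (5.12) and Tmem30b (2.18). With the mean of probe sets Ncam1 turned for iPS against ES (0.21) and EF (0.33), and Cdh1 for ES against EF (0.0062). Quantile normalization turned Cdh2 for DAC8 against REF1 (-0.0070). Uncalled differences also turned sign with 1 array left out, within these ranges: for ES against EF Epcam -0.10 to 0.23, Cdh1 -0.10 to 0.051, Cdh11 -0.037 to 0.16 and Pecam1 -0.14 to 0.054, for DAC8 against REF1 Cdh2 -0.060 to 0.11, and for A1 against A2 Cdh2 -0.23 to 0.046 and Ncam1 -0.086 to 0.40. Apart from the fits on fewer arrays or more features, the cause of these changes was not tested.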

Other observations

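Of 5 flippase genes tested, the subunit Tmem30a included, 2 were higher and 1 lower in the iPS lines than in DAC2, and for Atp10a, which passed too, both means were below 5. Over all genes 81.4% passed there. Tmem30a, the broadly expressed subunit, averaged 8.81 in A1, 8.80 in A2, 7.82 in DAC2, 9.72 in DAC8, 7.94 in REF2 and 9.77 in REF1. It was 0.98 ± 0.08 higher in the iPS lines than in DAC2 (adjusted p = 1.49e-06, limma with Benjamini-Hochberg adjustment) and lower than in REF1 by -0.97 ± 0.08 (adjusted p = 1.39e-06). The catalytic subunit Atp11a averaged 2.96 in A1 and 3.35 in A2, against 7.95 in DAC2, 8.27 in DAC8, 7.54 in REF2 and 8.26 in REF1. Like Tmem30b, Cdh22 and no other of the 9 genes, it was thus below 5 in the iPS lines and above 5 in the other 4 lines. Atp8a1 averaged 7.46 in A1 and 7.47 in A2, against 5.27 in DAC2, 4.21 in DAC8, 5.37 in REF2 and 4.66 in REF1.

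One endothelial marker stood out from the rest of its list, and is named because of its value. Tek, the angiopoietin receptor, averaged 9.06 in A1 and 8.89 in A2, against 2.63 in DAC2, 4.76 in DAC8, 2.38 in REF2 and 3.71 in REF1. Kdr averaged 3.05 and 3.08 in A1 and A2, and Emcn 2.82 and 2.78.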
